A study of Mus musculus with 16 samples.

Results

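Solute carriers are the membrane proteins that move amino acids, sugars, organic acids, metals, ions, vitamins and hormones across the plasma membrane and the membranes of organelles. The genes described here are the 188 rows, of 27179 in the deposited table, whose symbol has the form of a numbered solute carrier (Slc with a family number, an a and a member number, or Slco with a number) and whose mean was at least 100 in at least 1 of 4 sorted cell populations. They were chosen by their own level: the population means in this table selected them, so their presence above that limit is not a result. Symbols of this form numbered 367, and the other 179 stayed under 100 in all 4 populations, 111 of them under 10 and 4 at 0 in every library. The members just inside the limit were Slc25a45 with a highest mean of 104, Slc7a3 with 109, Slc26a6 with 111 and Slc25a13 with 112. Just outside it lay Slc37a2 at 99.7, Slc25a14 at 95.9, Slc7a11 at 95.3 and Slc44a3 at 95.2. Of the 188 members, 5 carry a carrier's name without being carriers: the scaffolds Slc9a3r1 and Slc9a3r2, the adaptor Slc4a1ap, and Slc7a6os and Slc2a4rg-ps, named for a neighbouring or related gene.

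The libraries were made from total RNA of cells that express Pdgfrb, sorted from epididymal fat, a white depot, of C57BL/6 mice on postnatal day 7. The 4 populations, with 4 libraries each, were adipocyte precursor cells (APCs), fibro-inflammatory progenitors (FIPs), mesothelial-like cells (MLCs) and smooth muscle cells (SMCs). All groups share the strain, age, depot and Pdgfrb gate, and the labels name no treatment. Whether replicates come from separate animals, pools or sorts is not given in the sources used here, so the p-values speak only of library-to-library spread, part or all of which may be technical.

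Depth ran from 9.20 to 27.5 M reads a library, with APCs replicate 4 and SMCs replicate 3 the shallowest. APCs replicate 4 also stood apart in the smooth muscle marker Acta2, at 2388 where the other APC libraries had 156 to 221. The 6 smooth muscle markers summed to 7909 there and 5279 to 5747 in the other APC libraries, a gap of about the Acta2 rise. The summed mesothelial markers (8 genes, among them Msln and Upk3b) were 128149 to 131369 in MLCs, 9423 to 14979 in SMCs, 3831 to 4314 in APCs and 2964 to 3504 in FIPs. In the other populations the smooth muscle markers summed to 10916 to 15806 in SMCs, 9272 to 10116 in MLCs and 4839 to 5492 in FIPs. Of these markers, Acta2 averaged 4537 in SMCs against 1428 in MLCs, whereas Myh11 averaged 1262 in SMCs and 1288 in MLCs. The 6 pericyte markers summed to 5134 to 6573 in APCs, 4225 to 4971 in SMCs, 2667 to 2886 in FIPs and 1424 to 1615 in MLCs. Markers of red cells summed to at most 209 in any library. Of the 7 macrophage and myeloid markers, Ptprc, the general marker of white blood cells, averaged under 10 in each population, as did Adgre1 and Tyrobp. Csf1r averaged 2210 in MLCs, 258 in SMCs and 27.2 to 28.8 in the progenitors, and Cd68 averaged 391 in MLCs and 593 to 734 in the others. The list summed to 2353 to 2906 in an MLC library and 503 to 1273 elsewhere. Its part in the MLC results was not tested. In sorted bulk RNA, fewer cells of a kind and less RNA per cell cannot be told apart.

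As background, carriers fall into a few mechanisms. Sodium-coupled importers, such as those of the SLC1, SLC6 and SLC38 families, draw on the gradient made by the sodium pump. Exchangers such as the SLC7 light chains, which pair with the heavy chain Slc3a2, trade one amino acid for another, and facilitators such as the SLC2 glucose carriers let their substrate run down its own gradient. In fat, the insulin-responsive glucose carrier Slc2a4 is a textbook marker of the adipocyte, and the lactate carrier Slc16a1 lets lactate leave or enter cells with a proton.

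The promoters of 5 carriers that mark the main patterns are shown first, because several members moved together between populations. Each sequence is the 250 bases before a RefSeq start on GRCm38.p6, 5′ to 3′ on the gene's strand, outside the gene's annotated span and free of annotated exons. Capitals mark matches on either strand to GGGCGG (the GC box), CACGTG (an E-box), TATAAA (the TATA box), GGAATG (the TEAD core) or TGATGNAA (an amino acid response element).
Slc16a1, lactate carrier, highest in MLCs, chr3:104638414-104638663, plus strand: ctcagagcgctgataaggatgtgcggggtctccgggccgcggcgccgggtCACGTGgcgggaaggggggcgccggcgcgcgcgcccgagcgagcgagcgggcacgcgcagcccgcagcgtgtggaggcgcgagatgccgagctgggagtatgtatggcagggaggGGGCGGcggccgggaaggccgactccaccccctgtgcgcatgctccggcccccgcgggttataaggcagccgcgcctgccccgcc
Slc7a1, cationic amino acid carrier, highest in MLCs, chr5:148399905-148400154, minus strand: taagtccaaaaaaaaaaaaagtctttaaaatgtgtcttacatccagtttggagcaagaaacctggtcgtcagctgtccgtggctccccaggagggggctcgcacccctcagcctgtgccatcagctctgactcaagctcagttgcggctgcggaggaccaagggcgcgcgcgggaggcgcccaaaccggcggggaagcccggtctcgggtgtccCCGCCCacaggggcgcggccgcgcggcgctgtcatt
Slc29a1, nucleoside carrier, lowest in MLCs, chr17:45599619-45599868, minus strand: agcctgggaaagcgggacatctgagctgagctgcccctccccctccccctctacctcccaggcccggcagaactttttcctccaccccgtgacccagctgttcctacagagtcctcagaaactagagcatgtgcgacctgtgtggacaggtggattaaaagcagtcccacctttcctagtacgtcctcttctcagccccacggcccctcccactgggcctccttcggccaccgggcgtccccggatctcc
Slc1a3, glutamate carrier, highest in APCs, chr15:8710808-8711057, minus strand: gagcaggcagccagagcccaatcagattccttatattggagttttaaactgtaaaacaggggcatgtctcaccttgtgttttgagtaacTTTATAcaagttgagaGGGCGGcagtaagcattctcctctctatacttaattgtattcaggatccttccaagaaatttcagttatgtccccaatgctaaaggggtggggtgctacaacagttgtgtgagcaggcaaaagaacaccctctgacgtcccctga
Slc8a1, sodium-calcium exchanger, highest in SMCs, chr17:81738388-81738637, minus strand: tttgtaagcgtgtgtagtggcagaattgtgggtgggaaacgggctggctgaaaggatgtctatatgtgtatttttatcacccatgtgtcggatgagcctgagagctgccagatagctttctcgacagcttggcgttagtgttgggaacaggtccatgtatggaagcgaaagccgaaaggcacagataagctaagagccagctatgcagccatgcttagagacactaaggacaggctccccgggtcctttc

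The Slc16a1 window held 37 CpG dinucleotides and was 76.4% G or C, with 1 GC box and 1 E-box. The Slc1a3 window held 2 CpG and was 44.8% G or C, with 1 GC box and 1 TATA box, and that of Slc8a1 held none of the 5 motifs. Slc29a1 has 8 starts in the RefSeq table and Slc7a1 has 2, so the start in use here is not known. A window was found for 140 members, and the first window listed for each was searched. The GC box lay in 68.6% of these, in 14 of 22 members highest in MLCs and in 58.5% of the promoters of 11465 tested genes. The TEAD core lay in 5 of the 22 and in 10.8% of the tested genes' promoters, and the E-box in 2 of the 22 and in 8.23%. These matches describe the letters alone.

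Values below are normalized read counts, reads per gene divided by 1 factor per library, and the figure after ± is the SD of the 4 libraries, or the SE where so marked. A gene was called different between 2 populations when limma gave an adjusted p under 0.05 and the difference on the log2(value + 1) scale was at least 1, which is a 2-fold change. All 188 members entered this test among 15024 genes. A member under 100 in some population was kept through the population where it is high, so its difference was partly set by the choice. Adjusted p-values are therefore printed only for members at 100 or more in all 4 populations, of which there were 138. Another 11 reached 100 in 3 populations, 11 in 2 and 28 in 1, and of the 28 that population was MLCs for 15, APCs for 5, SMCs for 5 and FIPs for 3.

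As a group the solute carriers made up under 1% of the reads in every library. Their summed value was 181703 ± 2479 for APCs, 180296 ± 3682 for FIPs, 181222 ± 1441 for MLCs and 167317 ± 2594 for SMCs. That is 0.920 to 0.958% of an APC library, 0.772 to 0.797% of a FIP library, 0.991 to 0.998% of an MLC library and 0.838 to 0.857% of an SMC library, so the shares of the 4 populations did not overlap. The same member had the largest count in all 16 libraries. Slc38a2, a sodium-coupled importer of glutamine, alanine and other small neutral amino acids (chr15:96687392-96699728), made up 5.62 to 8.02% of the summed members.

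Over a majority of the carriers no pair of populations passed the call rule, and the pairs with MLCs held the most calls. Of the 188, 101 were called in none of the 6 pairs, against 57.5% of all genes tested and 63.9% of the genes at 100 or more in some population. Among the 138 at 100 or more in all 4 populations, 95 (68.8%) were called in none, where 75.3% of 9571 such genes were. The fewest calls fell between APCs and FIPs, the 2 progenitor populations, for the members and for all genes tested alike. There 18 members were called, or 9.57% against a background of 10.4%, with 13 higher in APCs (background 5.22%) and 5 higher in FIPs (5.2%). Between APCs and MLCs 71 were called, or 37.8% (background 29.6%). Of these, 32 were higher in APCs (background 11.8%) and 39 in MLCs (17.7%). FIPs and MLCs gave 67, or 35.6% (background 31.1%), with 31 higher in FIPs (background 12.5%) and 36 in MLCs (18.6%). MLCs and SMCs gave 59, or 31.4% (background 27.9%), with 32 higher in MLCs (background 14.4%) and 27 in SMCs (13.5%). APCs and SMCs gave 39, or 20.7% (background 17.2%), with 13 higher in APCs (background 3.79%) and 26 in SMCs (13.5%). FIPs and SMCs gave 38, or 20.2% (background 17.9%), with 8 higher in FIPs (background 4.6%) and 30 in SMCs (13.3%).

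Among the 138 expressed throughout, the 3 pairs with MLCs again held the most calls. Between APCs and MLCs 30 were called (21.7%, background 15.7% of 9571 genes), between FIPs and MLCs 31 (22.5%, background 17.5%) and between MLCs and SMCs 23 (16.7%, background 14.5%). The other pairs gave 11 for APCs and SMCs (background 5.46%), 8 for FIPs and SMCs (6.44%) and 4 for APCs and FIPs (4.6%). The 6 pairs share their libraries and are not independent. The median difference over the members was between -0.018 and 0.078 on the log2 scale in the 6 pairs, beside -0.019 to 0.037 over all genes tested. With libraries scaled to equal totals instead, the median of all genes went to 0.23 between APCs and FIPs and to -0.35 between FIPs and MLCs. The split of members then became 23 higher in APCs and 3 in FIPs, and 23 higher in FIPs and 48 in MLCs.

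**Figure D1:**
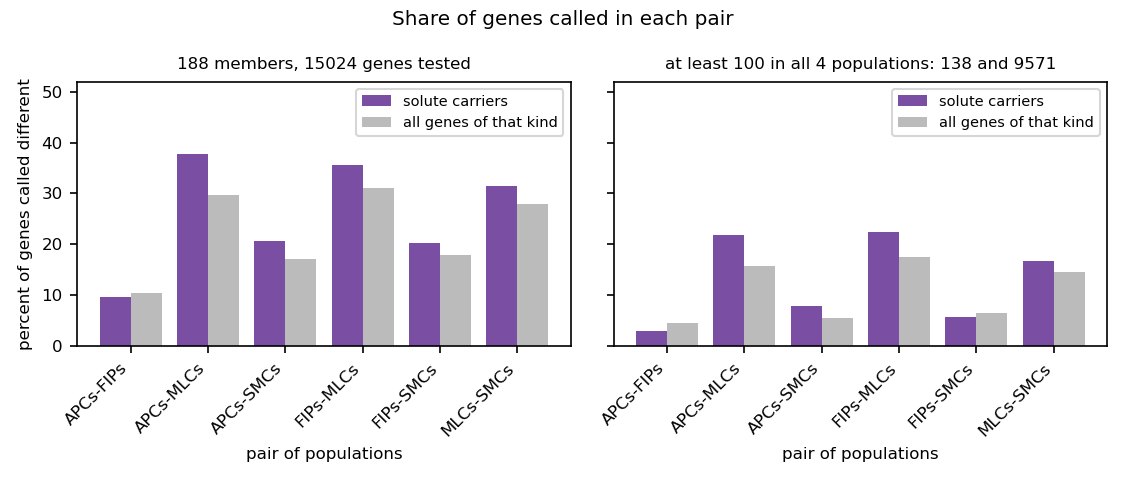
Percent of genes called different (vertical axis) in each of the 6 pairs of populations, for the solute carriers (purple) and for all genes of the same kind (grey); left, all 188 members beside 15024 genes tested, right, the 138 members beside the 9571 genes at 100 or more in all 4 populations. The tallest bars in both panels are the pairs of APCs or FIPs with MLCs, 37.8% and 35.6% of the members on the left.

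A member is termed highest in a population below if that population exceeded each of the other 3 by the call rule. This gave 28 members for MLCs (background 10.6%), 5 for APCs (1.07%), 4 for FIPs (1.5%) and 4 for SMCs (2.75%). By the reverse rule 21 were lowest in MLCs (background 7.89%), 6 in FIPs (1.96%), 2 in SMCs (0.313%) and 0 in APCs (1.84%). With libraries scaled to equal totals, 3 of the 4 members highest in FIPs missed the 2-fold limit, Slco3a1 (0.82 on the log2 scale) and Slc9a9 (0.86) against SMCs and Slc25a45 (0.86) against APCs, leaving Slc6a13. So did 4 members lowest in MLCs, Slc43a3 against SMCs (0.96), Slc22a17 (0.93) and Slc9a3r2 (0.97) against FIPs, and Slc41a3 against APCs (0.96) and SMCs (0.92). Only 8 of the 28 and 9 of the 21 were at 100 or more in all 4 populations. The 28 summed to 40419 to 42847 in an MLC library, 8591 to 11298 in an SMC library, 6060 to 6653 in a FIP library and 5725 to 6121 in an APC library. The 21 lowest in MLCs summed to 6784 to 7014 in MLCs, 24342 to 26671 in SMCs, 30827 to 31712 in FIPs and 33247 to 35057 in APCs.

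SMCs stood second for 25 of the 28 members highest in MLCs, at 6.23 to 49.7% of the MLC mean with a median of 20.5%. The summed mesothelial markers in SMC libraries were 7.24 to 11.5% of the MLC mean. Across SMCs replicates 1 to 4 the mesothelial markers summed to 13022, 11452, 14979 and 9423, and the 28 members to 10036, 9181, 11298 and 8591. Both sums thus had the same order over these 4 libraries. Of the 28, 18 had their highest SMC value in replicate 3 and 15 their lowest in replicate 4. The part of the mesothelial markers in the SMC levels of these genes was not tested.

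**Figure D2:**
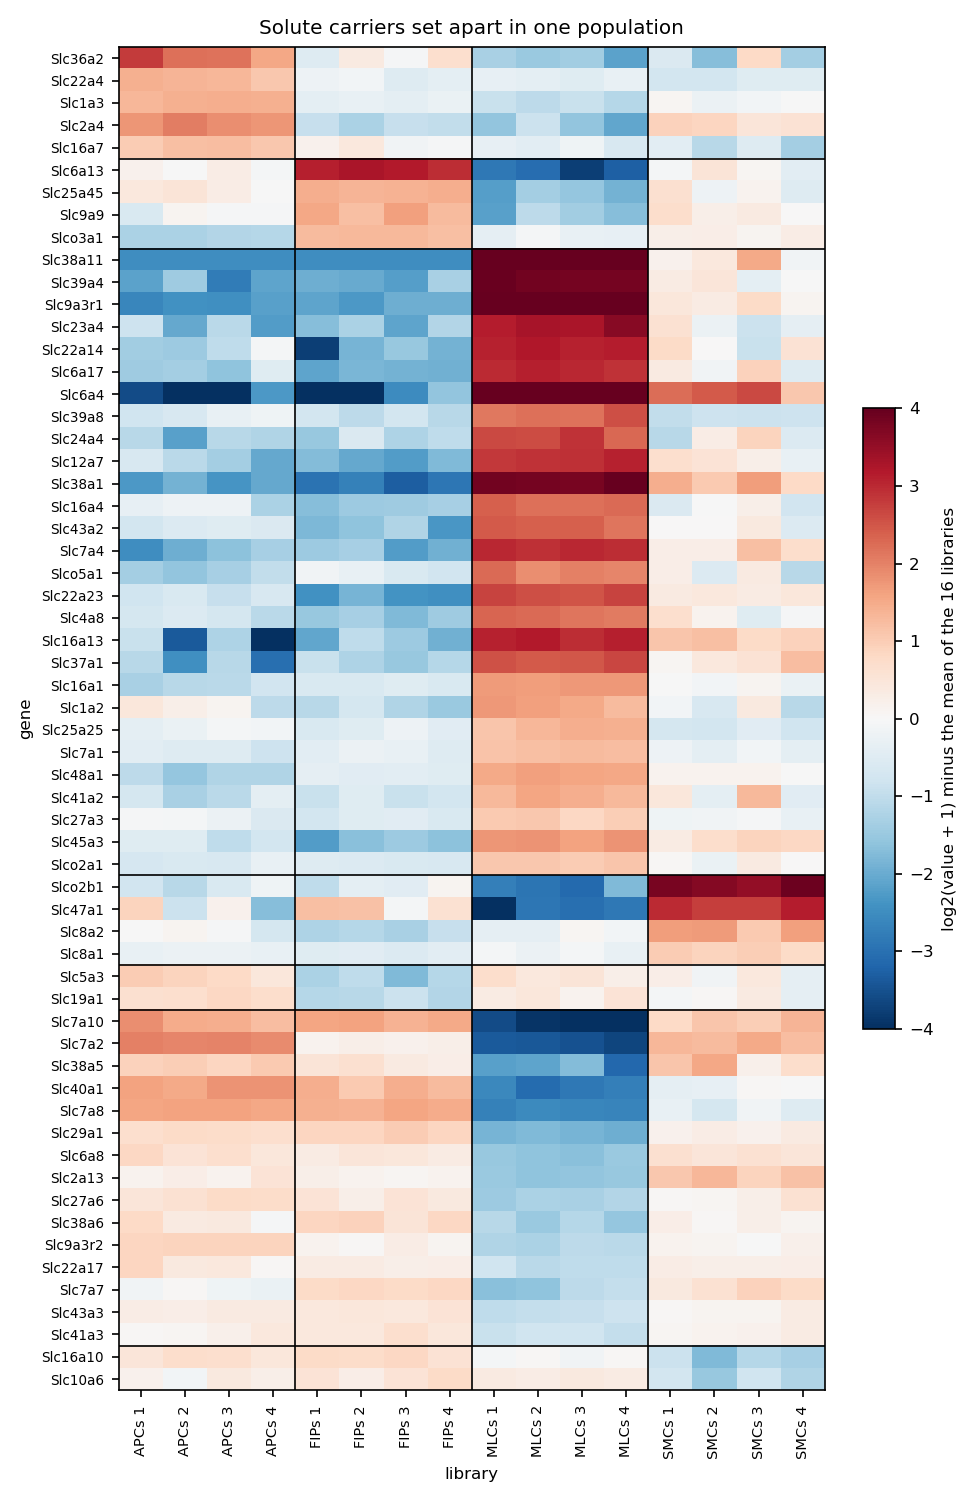
Level of 60 of the members called highest (upper 4 blocks: APCs, FIPs, MLCs, SMCs) or lowest (lower 3 blocks: FIPs, MLCs, SMCs) in 1 population, as log2(value + 1) minus the gene's mean over the 16 libraries, with the colour capped at 4 in either direction; columns are libraries. The large MLC blocks, 28 high and 15 low members not also highest elsewhere, are uniform over the 4 MLC libraries.

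Among carriers of organic acids, the lactate family stood highest in MLCs. The 7 monocarboxylate members summed to 8836 to 9093 in MLCs, 3054 to 3612 in SMCs, 2235 to 2455 in FIPs and 1864 to 2257 in APCs. Its main member was Slc16a1 (chr3:104638664-104658462), the proton-coupled carrier of lactate, pyruvate and ketone bodies. It read 7421, 7351, 7643 and 7691 in MLCs, 2296, 2138, 2468 and 1922 in SMCs, 1497, 1500, 1646 and 1510 in FIPs, and 946, 1064, 1087 and 1363 in APCs. The 4 groups did not overlap. The log2 difference was 2.77 ± 0.09 (SE) for MLCs over APCs (adjusted p = 6.02e-16), 2.29 ± 0.09 over FIPs (adjusted p = 1.09e-14) and 1.78 ± 0.09 over SMCs (adjusted p = 1.02e-12).

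Slc16a3, the carrier typical of cells that export lactate, was higher in both MLCs (601 ± 51.8) and SMCs (608 ± 23.0) than in APCs (288 ± 37.0) and FIPs (255 ± 12.6). It was called in those 4 pairs and MLCs and SMCs overlapped. The log2 difference was 1.23 ± 0.09 (SE) for MLCs over FIPs (adjusted p = 1.88e-10) and 1.08 ± 0.09 for SMCs over APCs (adjusted p = 5.13e-09). MLCs against APCs missed the limit without APCs replicate 3, at 0.998. Slc16a7, a high-affinity pyruvate carrier, went the other way, with 163, 186, 191 and 171 in APCs and at most 106 in any other library. It was called highest in APCs, though the 2-fold limit against FIPs was missed without FIPs replicate 3 (log2 difference 0.96) or 4 (0.99). Per kilobase of exon, Slc16a1 made up 93.5 ± 0.64% of Slc16a1, Slc16a3 and Slc16a7 together in MLCs and 78.3 ± 1.69% in APCs. Slc16a13 (175 ± 10.8 in MLCs, 4.75 to 41.0 as the other means) and Slc16a4 (233 ± 14.9 in MLCs, 16.5 to 40.4) were also highest in MLCs. With a pseudocount of 0.1 the call of Slc16a13 against SMCs was lost. Slc16a6 and Slc16a9 were called in no pair.

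Among the partners of these carriers, basigin (Bsg), the chaperone that brings Slc16a1 and Slc16a3 to the surface, averaged 5563 to 6763 and was called in no pair, nor was neuroplastin (Nptn). Embigin (Emb), the chaperone of Slc16a7, was called highest in SMCs at 562 ± 383, with 12.8 ± 4.79 in FIPs. Its values were uneven: APCs replicate 4 read 472 where the other 3 APC libraries had 34.2 to 49.3, and SMCs replicate 3 read 1082. Hexokinase 2 (Hk2), which traps glucose in the cell, was lowest in MLCs at 282 ± 22.3, beside 1746 ± 353 in APCs, 1362 ± 204 in FIPs and 1113 ± 113 in SMCs. Lactate dehydrogenase A (Ldha) averaged 5893 ± 283 in APCs and 2133 ± 175 in MLCs, a called difference. Their relatives did not follow. Hexokinase 1 (Hk1) was called in no pair, and lactate dehydrogenase B (Ldhb) was called higher in both APCs and MLCs than in FIPs and SMCs. The mitochondrial pyruvate carrier subunits Mpc1 and Mpc2 were called in no pair.

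Slc16a10, a carrier of aromatic amino acids and thyroid hormone, was lowest in SMCs at 71.5 ± 18.7, beside 166 ± 11.4 in MLCs, 255 ± 20.2 in APCs and 282 ± 21.7 in FIPs.

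**Figure D3:**
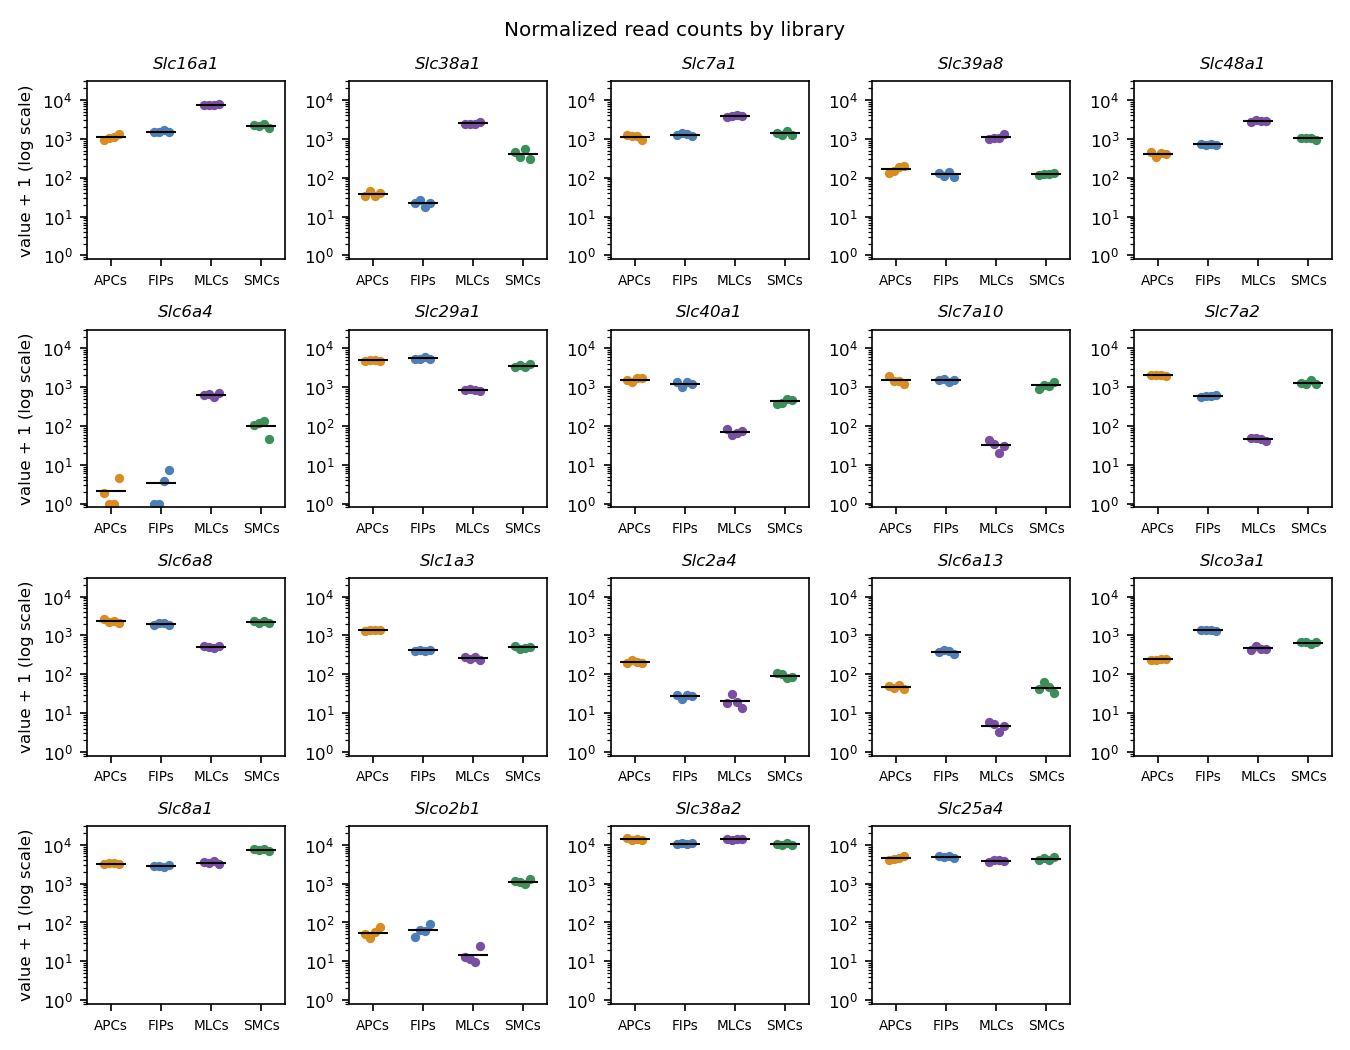
Normalized read count plus 1 on a log scale (vertical axis) of 19 solute carriers in each of the 16 libraries; points are libraries, coloured by population, and lines are population means. Slc16a1, Slc38a1, Slc7a1, Slc39a8, Slc48a1 and Slc6a4 peak in MLCs, the next 5 genes are lowest there, and Slc38a2 and Slc25a4 (last 2 panels) stay within a 2-fold range.

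Amino acid carriers held the member with the largest count, and several of its relatives differed between MLCs and the other populations. Slc38a2 read 14564, 13382, 14230 and 12900 in APCs, 10659, 10927, 10447 and 11081 in FIPs, 14438, 13260, 13855 and 13976 in MLCs, as well as 10478, 9992, 11160 and 9909 in SMCs. APCs and MLCs lay above FIPs and SMCs without overlap, by under 2-fold, and no pair was called. Slc1a5, the sodium-dependent exchanger of glutamine, averaged 6962 ± 1046 in APCs, 6757 ± 106 in FIPs, 3897 ± 74.4 in MLCs, as well as 4293 ± 229 in SMCs, with no pair called.

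Slc38a1 (chr15:96571418-96643438), which imports the same small neutral amino acids as its neighbour Slc38a2, was highest in MLCs. It read 2442, 2428, 2357 and 2761 in MLCs, 459, 348, 542 and 294 in SMCs, 33.8, 44.3, 32.2 and 39.8 in APCs, and 20.8, 25.0, 16.2 and 21.8 in FIPs. The MLC mean was 66.6 times that of APCs, 119 times that of FIPs and 6.08 times that of SMCs. Slc38a4, the third importer of this kind, was lower in MLCs (867 ± 36.1) than in FIPs (2596 ± 229) by 1.58 ± 0.07 on the log2 scale (SE, adjusted p = 1.40e-13) and than in APCs (2014 ± 110) by 1.21 ± 0.07 (adjusted p = 9.58e-12). Per kilobase of exon, Slc38a1 took 7.55 ± 0.49% of the sum of the 3 in MLCs and 0.107 ± 0.019% in APCs, while Slc38a2 took 66.7 to 81.8% in each population. Slc38a11, of the same family, was at 143, 112, 131 and 106 in MLCs and 5.26, 6.40, 14.9 and 4.09 in SMCs, and stood at 0 in all 8 libraries of APCs and FIPs.

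The carriers of cationic amino acids (arginine, lysine, ornithine) differed by form. Slc7a1 (chr5:148327410-148399904), the widespread form, read 3679, 3832, 4016 and 3913 in MLCs and 935 to 1556 in the other 12 libraries. The log2 difference was 1.79 ± 0.08 (SE) for MLCs over APCs (adjusted p = 2.98e-13), 1.58 ± 0.08 over FIPs (adjusted p = 1.90e-12) and 1.49 ± 0.08 over SMCs (adjusted p = 8.04e-12). Slc7a2 (chr8:40862341-40922070), the second form, read 2082, 2006, 2035 and 1906 in APCs, 571, 604, 585 and 611 in FIPs, 1308, 1233, 1482 and 1207 in SMCs, as well as 49.4, 48.2, 45 and 39.6 in MLCs. Its 4 groups did not overlap, and it was called in 5 of the 6 pairs, APCs against SMCs being the exception at under 2-fold. Of the length-adjusted sum of Slc7a1, Slc7a2 and Slc7a3, Slc7a1 made up 92.1 ± 0.64% in MLCs, 58.0 ± 2.60% in FIPs, 41.0 ± 0.97% in SMCs and 29.7 ± 1.88% in APCs. The sum itself varied less, from 193 ± 10.2 per kilobase in FIPs to 364 ± 13.3 in MLCs. Slc7a4, a relative with no agreed substrate, averaged 493 ± 16.8 in MLCs, 98.2 ± 32.5 in SMCs and under 20 in APCs and FIPs.

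Slc3a2, the heavy chain that the exchanger light chains need, was called in no pair, at 2634 ± 212 in APCs, 2094 ± 208 in FIPs, 2163 ± 152 in MLCs, as well as 1745 ± 85.2 in SMCs. Its light chains differed. Slc7a10 (chr7:35186095-35201116), which exchanges small neutral amino acids such as serine and glycine, read 1908, 1464, 1438 and 1224 in APCs, 1559, 1613, 1361 and 1496 in FIPs, 907, 1128, 1044 and 1340 in SMCs, as well as 42.7, 33.8, 19.2 and 29.1 in MLCs. The MLC libraries lay apart from the other 12, and APCs were 48.4 times MLCs. In the annotation 17.9% of its exonic bases also belong to a gene on the opposite strand. Slc7a8, a carrier of neutral amino acids, averaged 1650 ± 36.8 in APCs, 1519 ± 77.3 in FIPs, 416 ± 69.7 in SMCs, as well as 87.7 ± 4.23 in MLCs. Slc7a5, the carrier of leucine and other large neutral amino acids, and Slc7a6 were called in no pair. The length-adjusted sum of the 5 light chains was 1664 ± 122 per kilobase in APCs, 1549 ± 39.4 in FIPs, 1116 ± 99.9 in SMCs, as well as 526 ± 25.3 in MLCs. In MLCs Slc7a5 made up 38.1 ± 2.43% of it and Slc7a6 54.0 ± 2.34%, where in APCs they took 15.1 ± 1.20% and 21.1 ± 2.71%. Slc7a7, the light chain that exchanges cationic for neutral amino acids, was lowest in MLCs at 23.5, 24.5, 36.9 and 39.6, with 64.0 to 147 in the other 12 libraries.

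**Figure D4:**
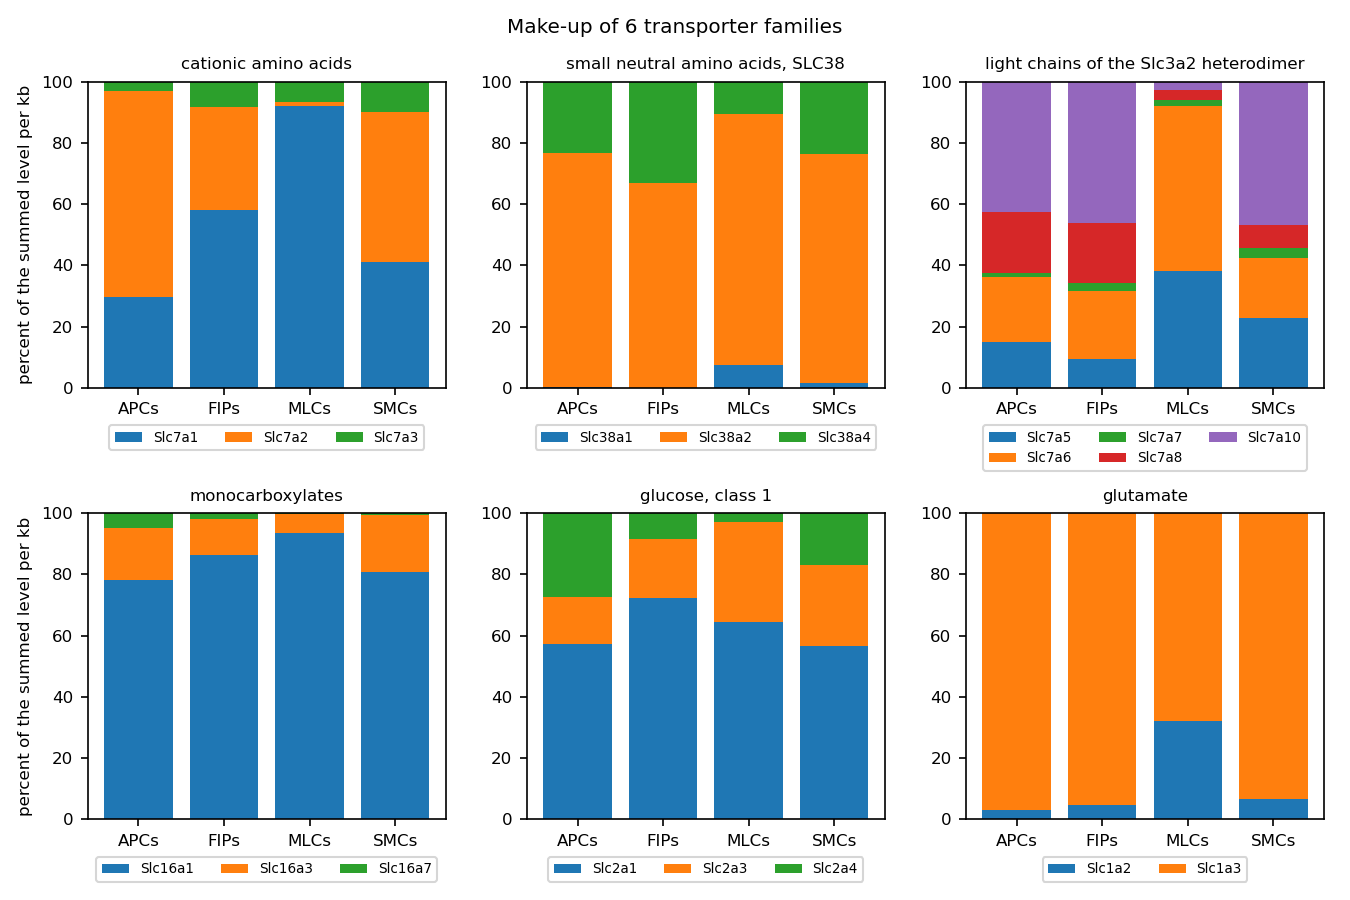
Make-up of 6 groups of related carriers by population, as the percent of the group's summed level per kilobase of exon (vertical axis), averaged over 4 libraries. In MLCs Slc7a1 reached 92.1% of the cationic carriers, Slc7a5 and Slc7a6 held the largest shares of the light chains, and Slc1a2 made up 32.3% of the glutamate pair, against 3.06 to 6.62% elsewhere.

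Of the glutamate carriers, Slc1a3 (chr15:8634124-8710807), best known for clearing glutamate in glia, read 1311, 1396, 1402 and 1375 in APCs, 392, 418, 390 and 429 in FIPs, 545, 438, 483 and 506 in SMCs, as well as 279, 249, 277 and 235 in MLCs. It was the carrier highest in APCs that was also above 100 in every population. APCs exceeded FIPs by 1.75 ± 0.08 on the log2 scale (SE, adjusted p = 1.00e-12), SMCs by 1.48 ± 0.08 (adjusted p = 7.31e-12) and MLCs by 2.40 ± 0.08 (adjusted p = 5.75e-16). Slc1a2, the related carrier, was highest in MLCs at 191 ± 25.9, with 29.9 to 66.6 as the other means. Slc36a2, a proton-coupled carrier of proline and glycine known as a surface marker of brown adipocytes, read 218, 142, 140 and 89.9 in APCs and at most 53.4 elsewhere.

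The SLC43 family split by member. Slc43a3, now known to carry purine bases, was lower in MLCs (3160 ± 182) than in the other 3 (6681 to 8280), with a log2 difference of 1.39 ± 0.06 (SE) for FIPs over MLCs (adjusted p = 8.19e-14). Slc43a2, a facilitator of large neutral amino acids, was highest in MLCs at 647 ± 59.1 and averaged 127 ± 32.5 in SMCs, 84.2 ± 6.36 in APCs and 38.8 ± 12.4 in FIPs. Slc38a6 and Slc38a5 were lowest in MLCs, at 161 ± 24.9 and 24.4 ± 8.95, beside 448 to 691 and 159 to 230 in the others. Slc36a1, a proton-coupled carrier of small amino acids, was called lower in MLCs (309 to 352) than in FIPs (815 to 864) and APCs (628 to 743), the latter not without APCs replicate 1 (log2 difference 0.98) or with equal totals (0.94). Slc38a10, Slc38a7, Slc38a9, Slc36a4, Slc43a1, Slc1a4 and Slc66a2 were among the members called in no pair. On the side of enzymes, asparagine synthetase (Asns) was highest in MLCs at 831 ± 65.7, with 110 to 183 in the others, and glutamine synthetase (Glul) was lowest there at 1776 ± 95.8, with 4286 to 5543.

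In the annotation 14 of 186 matched members share over 10% of their exonic bases with another gene; those described are named with that share or, for Slc7a4 (13.3%), Slc16a6 (23.5%), Slc16a9 (23.5%), Slc45a3 (13.5%), Slc20a1 (13.1%), Slc6a9 (30.2%) and Slc33a1 (32.0%), here.

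Of the 6 members of the sodium- and chloride-coupled SLC6 family, 1 was called in no pair, where 57.5% of all genes tested were. Slc6a9, the glycine carrier, was called lower in MLCs (198 to 239) than in APCs (403 to 496) and SMCs (433 to 529). Its call against APCs ended without replicate 1 of APCs (log2 difference 0.99) or without replicate 1 of MLCs, and with equal totals both calls ended (0.96 against APCs and 0.997 against SMCs). Slc6a4 (chr11:76998597-77032343), the serotonin transporter, read 609, 658, 559 and 691 in MLCs and 102, 118, 135 and 45 in SMCs. In APCs and FIPs it lay between 0 and 6.35. The MLC mean was 6.29 times that of SMCs, and the groups did not overlap. With a pseudocount of 0.1 the call for this pair was lost. Slc6a17, a vesicular carrier of neutral amino acids, read 652, 705, 663 and 610 in MLCs and at most 154 in SMCs.

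Slc6a13 (chr6:121300288-121337721), which carries GABA and taurine, was highest in FIPs. It read 370, 414, 389 and 335 in FIPs, 48.2, 42.3, 52.2 and 39.8 in APCs, 40.0, 60.8, 44.8 and 31.7 in SMCs, and 5.03, 4.23, 2.21 and 3.52 in MLCs. The FIP mean was 8.26 times that of APCs and 101 times that of MLCs. Slc6a8 (chrX:73673133-73682502), the creatine carrier, was lowest in MLCs, at 529, 490, 471 and 537 against 1886 to 2683 in the other 12 libraries. The log2 difference was 2.20 ± 0.07 (SE) for APCs over MLCs (adjusted p = 1.75e-15). Creatine kinase B (Ckb) was lowest in MLCs as well, at 285 ± 22.6 with 1844 to 2341 elsewhere. Gatm, the enzyme of the first step of creatine synthesis, was highest in APCs, at 1643 ± 133 with 169 to 453 elsewhere. The taurine carrier Slc6a6 was called in no pair (1506 to 2381 as means).

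Sugar carriers summed to nearly the same level everywhere, 5342 to 5509 as means, but the glucose carriers differed in kind. Slc2a4 (chr11:69942286-69948216), the insulin-responsive glucose carrier, read 190, 229, 201 and 188 in APCs, 104, 101, 76.9 and 82.8 in SMCs, 28.7, 22.2, 28.6 and 27.2 in FIPs, and 17.6, 29.6, 17.7 and 12.3 in MLCs. APCs lay above all other libraries, at 7.57 times FIPs. Beside this, 7 markers of mature adipocytes, among them Plin1, Adipoq and Cfd, summed to 2010 to 2621 in APCs, 469 to 1379 in SMCs, 270 to 327 in MLCs and 139 to 171 in FIPs. The markers did not move together. Plin1 averaged 1607 in APCs but only 53.03 in SMCs, near MLCs (49.36) and FIPs (38.65). Most of the SMC sum was Cfd, at 499 ± 292 there and 129 ± 217 in APCs. Adipoq averaged 261 in APCs and 157 in SMCs. The part of these markers in the Slc2a4 levels was not tested. Slc2a1, the widespread glucose carrier, was called in no pair, with means of 233 ± 25.3 in FIPs and 315 to 452 in the others. Slc2a3, a high-affinity form, was higher in MLCs (476 ± 16.1) than in FIPs (128 ± 15) by 1.90 ± 0.09 on the log2 scale (SE, adjusted p = 6.63e-13), and was called above APCs (236 ± 15.8), a call that ended without APCs replicate 2 (log2 difference 0.96) or MLCs replicate 4 (0.99). Per kilobase, Slc2a4 made up 27.4 ± 2.73% of these 3 glucose carriers in APCs, 16.9 ± 3.25% in SMCs, 8.39 ± 1.15% in FIPs and 2.77 ± 0.99% in MLCs.

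Slc45a3 and Slc37a1, other members of the sugar class, were highest in MLCs, at 245 ± 14.5 and 128 ± 8.90, and Slc45a3 missed the 2-fold limit over SMCs without SMCs replicate 1 (log2 difference 0.92). Slc2a8, an intracellular glucose carrier, was called lower in MLCs (121 to 132) than in APCs and FIPs (226 to 312), the latter not with equal totals (log2 difference 0.79). Slc37a3, Slc45a4, Slc50a1, Slc2a10 and Slc37a4 were called in no pair. The inositol carriers split: Slc5a3, sodium-coupled and known to respond to osmotic stress, was lowest in FIPs at 182, 218, 131 and 200, with 344 to 889 in the other 12 libraries. APCs exceeded FIPs by 2.08 ± 0.17 (SE, adjusted p = 9.46e-09). Slc2a13, coupled to protons, was lowest in MLCs at 124 ± 5.45 and averaged 797 ± 106 in SMCs, a log2 difference of 2.66 ± 0.10 (SE, adjusted p = 1.21e-14).

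Nucleoside, fatty acid and vitamin carriers were few. Slc29a1 (chr17:45585200-45599618), the main facilitator of adenosine and other nucleosides, read 4718, 5054, 4995 and 4741 in APCs, 5404, 5428, 6051 and 5359 in FIPs, 3340, 3644, 3335 and 3849 in SMCs, as well as 820, 869, 822 and 774 in MLCs. The MLC libraries stood apart, below FIPs by 2.76 ± 0.06 on the log2 scale (SE, adjusted p = 1.15e-18). Its lysosomal relative Slc29a3 was called in no pair. Of 4 fatty acid carriers all were called in some pair, where 57.5% of all genes tested were called in none. Slc27a3 was highest in MLCs (824 ± 62.4 against 279 to 370), with a log2 difference of 1.15 ± 0.11 over SMCs (SE, adjusted p = 1.08e-08), and Slc27a6 was lowest there (52 ± 3.93 against 154 to 203). Slc27a4 was higher in MLCs (1675 ± 37.8) than in APCs (806 ± 67.6), and Slc27a1 lowest in FIPs by mean (337 ± 10.7 against 667 to 720), called against MLCs and SMCs. The call against MLCs ended without FIPs replicate 1 (0.998 on the log2 scale) or without MLCs replicate 4 (0.999).

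Among vitamin carriers Slc19a1, the reduced folate carrier, was lowest in FIPs at 71.2, 73.0, 85.9 and 68.9, with 124 to 280 in the other 12 libraries. Without SMCs replicate 3 its log2 difference from SMCs was 0.95, under the limit. Slc23a4, classed here through its relatives, the vitamin C carriers, and not by its own substrate, was highest in MLCs at 295 ± 44.5, with 9.13 to 25.8 elsewhere. Slc23a2, Slc19a2, Slc52a2, Slc46a1 and Slc5a6 were called in no pair. The choline carriers Slc44a1 and Slc44a2, the acetyl-CoA carrier Slc33a1 and the 5 nucleotide sugar carriers of the SLC35 family were called in none either.

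Of the 4 members that carry iron, heme or related substrates, Slc40a1 and Slc48a1 were called between MLCs and each other population, in opposite directions. Slc40a1 (chr1:45908070-45926532), ferroportin, the iron exporter, read 1495, 1387, 1681 and 1703 in APCs, 1331, 999, 1322 and 1168 in FIPs, 375, 383, 502 and 478 in SMCs, as well as 80.4, 56.7, 65.6 and 72.2 in MLCs. MLCs did not overlap with the others, and APCs were 22.8 times MLCs. Slc48a1 (chr15:97784365-97792692), a heme carrier of endosomes and lysosomes, ran opposite, with 2757, 3014, 2860 and 2854 in MLCs and 332 to 1070 in the other 12 libraries. MLCs exceeded APCs by 2.82 ± 0.08 on the log2 scale (SE, adjusted p = 9.23e-17) and SMCs by 1.46 ± 0.08 (adjusted p = 3.94e-12). Ceruloplasmin (Cp), the ferroxidase that works with ferroportin, was lowest in MLCs at 60.3 ± 3.74, with 2200 to 3527 in the others. The ferrireductase Steap3 was also lowest there, 243 ± 34.1 against 3805 to 11325. Slc11a2, the importer of ferrous iron, and the ferritin genes Fth1 and Ftl1 were called in no pair. Slc49a4 was called higher in FIPs (993 to 1174) than in MLCs (495 to 557), a call that ended with equal totals (log2 difference 0.68) and without FIPs replicate 3 (0.97) or MLCs replicate 1 (0.99).

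Of 17 zinc and manganese carriers, 12 were called in no pair (57.5% of all genes tested, 75.3% of those at 100 or more in all 4 populations), among them Slc39a7 of the secretory pathway (3458 to 4306 as means) and Slc39a1 (2040 to 2625). Slc39a7 shares 80.6% of its exonic bases with an overlapping gene model, so its level is uncertain. Slc39a8 (chr3:135816882-135888572), which imports zinc, manganese and iron, read 983, 1039, 1033 and 1357 in MLCs and 104 to 201 in the other 12 libraries. MLCs exceeded SMCs by 3.14 ± 0.14 on the log2 scale (SE, adjusted p = 1.66e-13) and APCs by 2.74 ± 0.14 (adjusted p = 8.59e-13). Its SMC libraries read 114 to 128, beside 129 to 201 in APCs and 104 to 136 in FIPs. Slc39a4, the intestinal-type zinc importer, read 414, 386, 381 and 381 in MLCs, 19.2 to 36.3 in SMCs and under 10 in APCs and FIPs. Slc30a1, the zinc exporter of the plasma membrane, was called in 1 pair, MLCs (707 ± 122) above APCs (341 ± 10.4), which missed the limit without MLCs replicate 4 (0.94 on the log2 scale). Slc39a14, an importer of zinc, iron and manganese, was called lower in MLCs (426 to 467) than in FIPs (938 to 1089) and SMCs (980 to 1282), and Slc39a6 lower in MLCs (865 to 991) than in FIPs (1907 to 2177). With equal totals both calls against FIPs were lost (0.83 and 0.79 on the log2 scale). Of the magnesium carriers Slc41a2 was highest in MLCs (190 ± 18), Slc41a3 lowest there (219 ± 11.6 against 448 to 559), and Slc41a1 was called in no pair. Slc41a2 against SMCs missed the limit without SMCs replicate 2 (log2 difference 0.97) or 4 (0.96), and Slc41a3 missed it against APCs without APCs replicate 4 (0.97) and against SMCs without MLCs replicate 4 (0.999) or SMCs replicate 4 (0.98). The copper importer Slc31a1 was called in none, while Slc31a2 was called higher in MLCs (651 to 704) than in APCs (270 to 406).

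Among ion exchangers, Slc8a1 (chr17:81373105-81738387), the sodium-calcium exchanger of heart and smooth muscle, was highest in SMCs. It read 7910, 7228, 7707 and 6736 in SMCs, 3165, 3321, 3303 and 3197 in APCs, 2821, 2888, 2672 and 2943 in FIPs, and 3698, 3350, 3747 and 3178 in MLCs. The SMC libraries lay above all others, with log2 differences of 1.08 ± 0.06 (SE) over MLCs (adjusted p = 7.15e-12), 1.18 ± 0.06 over APCs (adjusted p = 7.39e-12) and 1.38 ± 0.06 over FIPs (adjusted p = 5.37e-13). With equal totals the difference from MLCs was 0.97, under the limit. Its relative Slc8a2 read 192, 196, 124 and 187 in SMCs and at most 64.4 elsewhere. Slc24a3, a potassium-dependent sodium-calcium exchanger, had its highest mean in APCs (3042 ± 83.0) and was called higher there than in MLCs (661 ± 35.2) and SMCs (991 ± 139). Slc24a4, a further exchanger of this kind, was highest in MLCs (137 ± 22.7).

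The bicarbonate importer Slc4a4 averaged 3389 ± 140 in MLCs and 1592 ± 136 in SMCs (log2 difference 1.09 ± 0.07, SE, adjusted p = 1.99e-11), with 1762 ± 90.7 in APCs and 1957 ± 141 in FIPs, below the 2-fold limit. Slc4a8 was highest in MLCs (549 ± 41.1 against 41.2 to 131). Of the carbonic anhydrases listed beside them, Car9 (449 ± 37.1 against 14.6 to 91.2), Car12 (166 ± 33.6 against 1.88 to 15.3) and Car14 (48.8 ± 4.28 against 10.7 to 14.2) were highest in MLCs. The rest of that list did not follow. Car13 averaged 685 ± 85.6 in APCs, 548 ± 47.7 in FIPs and 415 ± 17.8 in MLCs, and was lowest in SMCs at 169 ± 43.3. Car2 had its highest mean in APCs (35.4, beside 26.7 in MLCs), and Car4 averaged at most 12.4 in any population. Slc12a7, a potassium-chloride cotransporter, read 799, 832, 837 and 951 in MLCs, 176, 163, 130 and 89.9 in SMCs and 22.9 to 70.2 in APCs and FIPs. Slc12a4, Slc12a2 and Slc12a9 of that family were called in no pair. Slc9a9, the endosomal sodium-proton exchanger, was highest in FIPs at 143, 113, 153 and 117, with 10.1 to 79.0 elsewhere, and missed the limit over SMCs without SMCs replicate 4 (0.98). Called in no pair were the sulfate carriers Slc26a2, Slc26a6 and Slc26a11 and the phosphate carriers Slc20a1 and Slc20a2.

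The scaffold that ties sodium-proton exchangers and other carriers to the actin layer under microvilli, Slc9a3r1 (chr11:115163341-115181178), was highest in MLCs. It read 9570, 10121, 9714 and 10121 in MLCs, 798, 741, 995 and 636 in SMCs, 135, 117, 149 and 151 in FIPs and 94.7, 109, 107 and 128 in APCs. MLCs exceeded APCs by 6.49 ± 0.11 on the log2 scale (SE, adjusted p = 1.28e-19). Ezrin (Ezr), its binding partner, averaged 12803 ± 395 in MLCs, 2492 ± 95.8 in SMCs, 141 ± 18.8 in FIPs and 97.4 ± 18.1 in APCs. The second scaffold, Slc9a3r2, was lowest in MLCs at 431 ± 32.9 and averaged 1771 ± 28.4 in APCs (log2 difference 2.04 ± 0.07, SE, adjusted p = 1.17e-15).

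Slco2b1 (chr7:99657804-99711340), which takes up steroid sulfates and many drugs, was highest in SMCs. It read 1161, 1069, 974 and 1288 in SMCs and 8.85 to 90.7 in the other 12 libraries. SMCs were 20.8 times APCs, 17.6 times FIPs and 82.4 times MLCs. Slc47a1, a proton-coupled exporter of organic cations, read 159, 136, 137 and 178 in SMCs and at most 45.5 elsewhere. Beside these, the endothelial marker Cdh5 averaged 1698 in SMCs while Pecam1 averaged 30.6 there. Kdr, another of the 6 endothelial markers, averaged 826 in SMCs and 2485 in MLCs. The 6 summed to 2163 to 3217 in SMCs, 2309 to 3233 in MLCs, 361 to 796 in APCs and 272 to 481 in FIPs. Slco3a1 (chr7:74275418-74554780), a prostaglandin and organic anion carrier, read 1337, 1360, 1381 and 1286 in FIPs, 658, 663, 598 and 679 in SMCs, 429, 523, 451 and 441 in MLCs, and 232, 232, 244 and 249 in APCs. FIPs exceeded APCs by 2.48 ± 0.07 on the log2 scale (SE, adjusted p = 2.97e-15) and SMCs by 1.05 ± 0.07 (adjusted p = 1.76e-10).

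Slco2a1, the prostaglandin importer, was highest in MLCs at 2239, 2265, 2166 and 2318, with 670 to 1377 in the other 12 libraries, and exceeded SMCs by 1.03 ± 0.10 on the log2 scale (SE, adjusted p = 2.21e-08). Without SMCs replicate 2 that difference was 0.93, under the limit. Slco5a1, whose substrate is not established, was highest in MLCs at 342 to 456, with 30.2 to 120 elsewhere. Slc10a6, a carrier of sulfated steroids, was lowest in SMCs at 254, 148, 243 and 184, beside 395 to 718 elsewhere, a log2 difference of 1.59 ± 0.14 for FIPs (SE, adjusted p = 1.70e-08). Slc22a4, the ergothioneine carrier, read 248, 241, 234 and 195 in APCs and 54.8 to 85.1 in the other 12 libraries. Slc22a23 and Slc22a14 were highest in MLCs (682 ± 42.8 against 22.1 to 144 for Slc22a23, and 114 to 125 against 0 to 22.1 by library for Slc22a14), and Slc22a17, a receptor-like member of the family, was lowest there (704 ± 67.0 against 1655 to 1898). The carnitine carrier Slc22a5 and Slc22a15 and Slc22a21 were called in no pair, nor were the carnitine palmitoyltransferases Cpt1a, Cpt1c and Cpt2. Slc10a1 was called higher in SMCs than in APCs (log2 difference 1.66) and FIPs (1.6). It was also called higher in MLCs than in APCs, a call lost without any 1 of 5 libraries (0.51 on the log2 scale without APCs replicate 4), and the peptide carrier Slc15a2 lost the same call without any 1 of 4 (0.69 without APCs replicate 2). Slc17a9, the vesicular carrier of nucleotides such as ATP, was called higher in MLCs (178 to 237) and SMCs (108 to 135) than in APCs and FIPs (13.4 to 36.3).

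Mitochondrial carriers formed the largest class, with 33 members, of which 25 were called in no pair, against 57.5% of all genes tested and 75.3% of those at 100 or more in all 4 populations. Slc25a4, an exchanger of ADP and ATP, read 4080, 4263, 4682 and 5172 in APCs, 5047, 4943, 5129 and 4691 in FIPs, 3681, 4122, 3979 and 3881 in MLCs, as well as 4095, 4531, 4025 and 4728 in SMCs, and the groups overlapped in all pairs but FIPs with MLCs. Slc25a3, the phosphate carrier, averaged 2695 to 3855. Among the 8 called, Slc25a25, a calcium-regulated carrier of ATP-magnesium, was highest in MLCs, at 3175, 3674, 4003 and 3914 in MLCs and 853 to 1396 in the other 12 libraries. MLCs exceeded SMCs by 1.98 ± 0.10 on the log2 scale (SE, adjusted p = 6.69e-13). The related Slc25a24 was higher in FIPs (1950 ± 59.1) than in APCs (953 ± 65.2) by 1.03 ± 0.06 (SE, adjusted p = 2.76e-11), or 0.99 without APCs replicate 1 and 0.79 with equal totals, both under the limit, and Slc25a23 was higher in MLCs (1358 ± 49.9) than in APCs (648 ± 50.5) and FIPs (623 ± 22.6). Slc25a5, the related ADP/ATP exchanger, was called higher in APCs (1827 to 2333) than in SMCs (907 to 1193), or 0.999 on the log2 scale, under the limit, without SMCs replicate 1. Both exchangers have near-identical pseudogene copies, so their counts are uncertain. Slc25a45, near the level limit, was highest in FIPs at 107, 99.8, 102 and 106, with 7.54 to 60.0 elsewhere. Of the other called members of the class, Slc25a10 was higher in APCs (564 to 767) than in SMCs (286 to 389), Slc25a42 lower in MLCs (142 to 183) than in APCs and SMCs (310 to 437; 0.97 on the log2 scale against SMCs with equal totals, under the limit), and Slc25a13 higher in MLCs (107 to 116) than in APCs and SMCs (22.4 to 58.8).

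**Figure D5:**
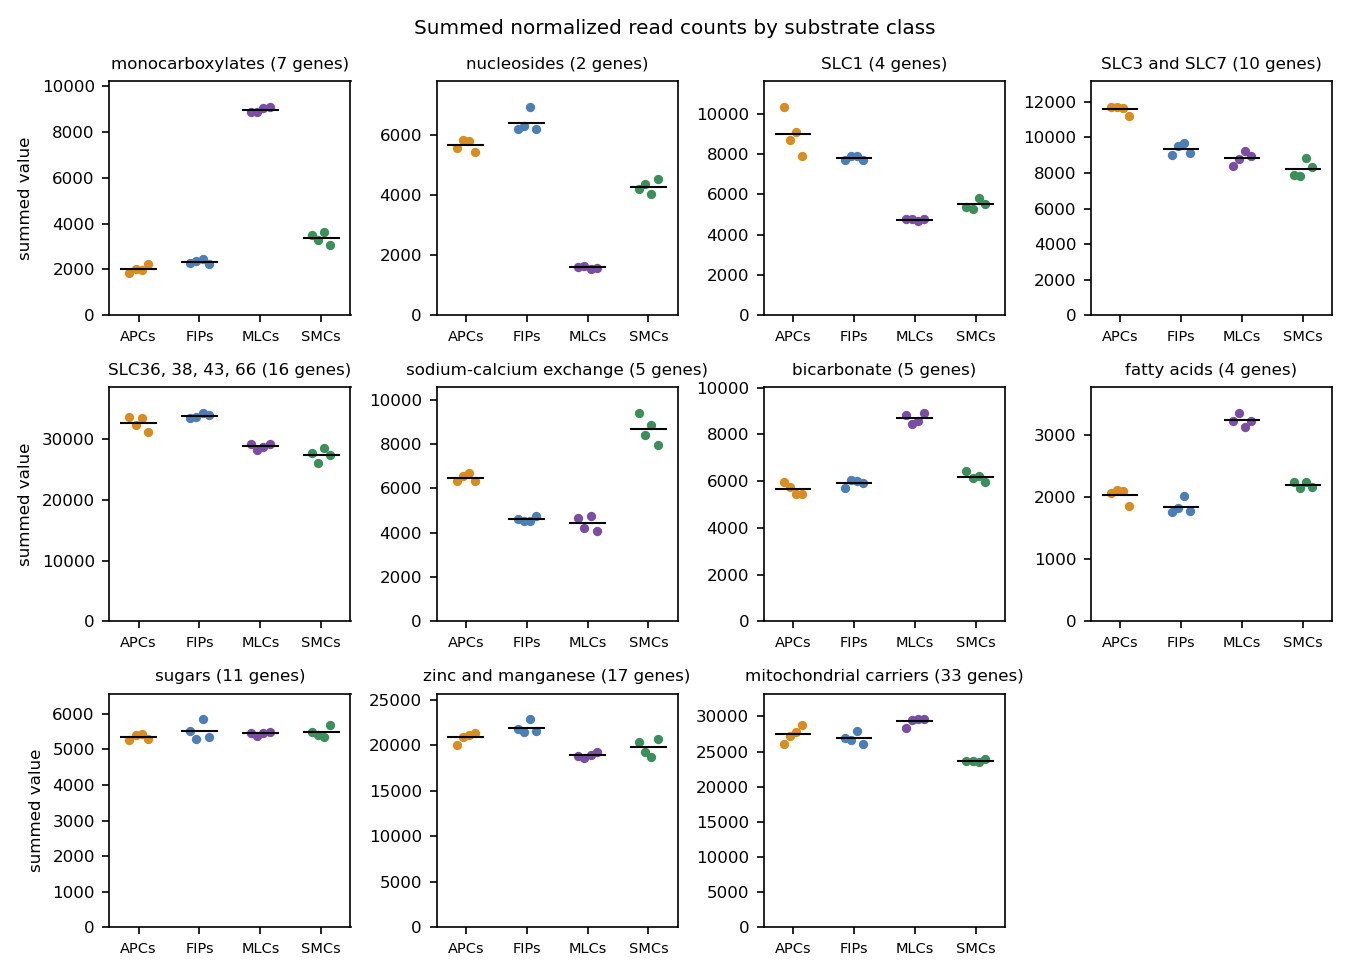
Summed normalized read counts (vertical axis, from 0) of the members of 11 substrate classes in each library; points are libraries, lines population means, and the number of genes stands in each title. Monocarboxylate, bicarbonate and fatty acid carriers peak in MLCs, nucleoside carriers are lowest there (1597 as a mean), sodium-calcium exchangers peak in SMCs (8660), and sugar carriers lie level.

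The sodium pump makes the gradient that sodium-coupled carriers use. Of its beta subunits, Atp1b1 was highest in MLCs, with a mean of 9817 ± 415 there and 752 to 1676 in the others. Atp1b2 was highest in APCs (1449 ± 114 against 354 to 565), and the regulator Fxyd6 highest in SMCs (2380 ± 356 against 257 to 767). In all, 45 of 46 listed partner genes were tested and 17 were called in no pair (background 57.5%). Between APCs and MLCs 10 were higher in APCs (background 11.8%) and 9 in MLCs (17.7%). Between FIPs and MLCs 7 were higher in FIPs (background 12.5%) and 12 in MLCs (18.6%). Between SMCs and MLCs 9 were higher in SMCs (background 13.5%) and 12 in MLCs (14.4%). The progenitor pair gave 6 higher in APCs (background 5.22%) and 3 in FIPs (5.2%). SMCs exceeded APCs for 7 (background 13.5%) and FIPs for 5 (13.3%), while 6 (background 3.79%) and 4 (4.6%) were lower.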

How the data were processed

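Bulk RNA-seq libraries of 4 sorted populations, 4 each, were analysed from 1 deposited table. Per the submitters' processing notes, the tools include featureCounts 1.4.6, HISAT2 2.0.1, DESeq2 1.6.3 and Trim Galore 0.4.1, with GRCm38 (mm10). The deposited signal values are gene read counts that the authors divided by 1 factor per library: within 0.01, all values came back as whole reads. The table heads the smooth muscle columns SMLCs. Rows without a symbol (1275) were no members.

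Differences were fitted with limma 3.58.1 (R 4.3.3) on log2(value + 1), 1 model over the 4 populations, for 15024 genes at 10 or more in at least 4 libraries, with Benjamini-Hochberg adjustment over all of them per pair. The script was tested on simulated data. An edgeR 4.0.16 quasi-likelihood test on the recovered reads used 14 libraries, leaving out FIPs replicate 1 and APCs replicate 2, whose steps lie nearest 1. Genomic spans and promoters are from RefSeq, exonic lengths and overlaps from the GENCODE annotation, both on GRCm38; strand of counting is not given in the sources used here. Any member could be named. Many of those named had the highest means or the largest range in their substrate class or were set apart in 1 population. Others were in no call with the highest means, or were further members of a class. A few members and partner genes entered the fits and counts but are not reported here by value. Members, substrate classes, partner genes and families were chosen with earlier results of these data known.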

Additional observations from a re-analysis of the deposited data

Results flagged for a closer look

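In 36 of 740 sets of 4 libraries (4.86%) the highest or lowest library stood far from the other 3, by Dixon's ratio of that gap to the whole range. Chance gives about 1 set in 20. FIPs replicate 3 held 5 of them, and MLCs replicate 1 held 4.

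Among APC libraries, Slc16a4 read 19 in replicate 4 against 38 to 41.3 in the others, Slc24a4 read 4.03 in replicate 2, Slc25a37 337 and Slc4a3 1552 in replicate 1, Slc39a14 900 in replicate 2, and Slc25a46 1411 and Slco2a1 861 in replicate 4. Slc16a4 and Slc24a4 were low and the rest high. In FIPs, replicate 3 was high for Slc16a1 (1646), Slc25a3 (3138), Slc29a1 (6051), Slc39a7 (4488) and Slc41a3 (633). Replicate 2 was high for Slc22a23 (29.6) and low for Slc30a6 (283), and replicate 1 was low for Slc4a7 (561).

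In MLCs, replicate 1 was low for Slc2a1 (386), Slc3a2 (1935), Slc47a1 (0) and Slc7a6os (643). Replicate 2 was high for Slc10a1 (93) and Slc25a10 (426) and low for Slc4a7 (424). Replicate 3 was high for Slc25a29 (145) and Slc44a1 (4361) and low for Slc45a3 (223), and replicate 4 was high for Slc39a8 (1357 against 983 to 1039). In SMCs, replicate 1 was high for Slc25a15 (303) and Slc36a1 (751), replicate 2 high for Slc10a3 (232) and low for Slc39a6 (1315), replicate 3 high for Slc25a37 (521 against 326 to 338) and Slc36a4 (707) and low for Slc8a2 (124), and replicate 4 high for Slc38a7 (351) and Slc7a5 (1001) and low for Slc48a1 (958).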

How the results depend on the processing

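Of 292 calls of members, 240 held under every alternative run and 0 reversed. The other 52 were lost under at least 1, most often with quantile normalization (25), equal totals (20) or a pseudocount of 8 (18), and 8 with edgeR. With equal totals 1 carrier, not 4, was highest in FIPs. FIP libraries had the largest normalized totals, so this setting scaled their values down against the others. Why the totals differ was not tested. The counts called ranged from 14 to 26 between APCs and FIPs, 68 to 71 between APCs and MLCs, 34 to 41 between APCs and SMCs, 65 to 71 between FIPs and MLCs, 35 to 43 between FIPs and SMCs and 55 to 62 between MLCs and SMCs. Leaving out 1 library at a time gave 16 to 20, 68 to 71, 37 to 42, 67 to 70, 38 to 41 and 58 to 60. It gave 4 to 5 members highest in APCs, 3 to 4 in FIPs, 26 to 29 in MLCs and 4 in SMCs. Leaving out APCs replicate 4 and SMCs replicate 3 together, chosen after seeing the data, cost 6 calls. With quantile normalization the share of all called genes that were higher in APCs than SMCs went from 22.0 to 44.5%, and in FIPs over SMCs from 25.7 to 45.6%.

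The labels number the replicates alike in each population. Deviations of libraries with the same number correlated weakly (24 pairs, r from -0.034 to 0.171, median 0.059, 6 over 0.1). The median for different numbers was -0.019. The main fit did not pair samples by number, and whether the numbers mark a shared sort or batch was not tested. With the number as a replicate block the counts were 18, 71, 39, 67, 38 and 59 in the order above, with 5, 4, 28 and 4 highest in APCs, FIPs, MLCs and SMCs. Every population holds all 4 numbers, so the block leaves each log2 difference unchanged and alters only its spread. These counts therefore cannot show whether the numbers mark a shared sort or batch.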
